A study of Caenorhabditis elegans with 18 samples.

Results

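The insulin receptor pathway of the nematode Caenorhabditis elegans was followed through 8 genes, daf-2, age-1, daf-18, pdk-1, akt-1, akt-2, sgk-1 and daf-16, in worms grown with or without the male pheromone ascr#10. The genes were taken by symbol from a table of 46253 genes, and each symbol matched 1 row. All 8 were among the 16006 genes with enough reads to be tested, so none was lost to the filter on low counts. Their 37 transcripts were read from the table of transcript levels.

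DAF-2 is the worm's receptor for insulin-like peptides. When it is active, the phosphoinositide 3-kinase AGE-1 makes the lipid PIP3 and the phosphatase DAF-18 removes it. PIP3 brings in the kinase PDK-1, which activates the kinases AKT-1, AKT-2 and SGK-1, and the AKT kinases keep the FOXO transcription factor DAF-16 out of the nucleus. The pathway is known in the worm for its part in dauer formation, lifespan, stress resistance, fat storage and germline proliferation and oocyte growth.

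RNA was sequenced from whole worms of the standard wild-type strain N2, and no group carried a mutation or a transgene. They were raised at 20 °C on OP50 bacteria from starved hatchlings, with 30 to 50 worms on a plate, and were harvested at 50 h or 58 h once any males and slow growers had been picked away. Plates had been treated with ascr#10, an ascaroside made mainly by males, at 2.2 or 1.1 fg per plate by plate size, or with water alone. There were 6 groups of 3 samples. These were water and ascr#10 at 50 h, and water and ascr#10 at 58 h in each of a first and a second collection. The sample descriptions label the second collection as a second batch and name no batch for the other samples. The 50 h samples and the other 58 h samples were therefore taken here as the first collection. The labels describe the samples of a condition as independent, do not say how many plates went into each, and give 58 h as the age of every sample in one field, while titles and descriptions give 50 h for the 6 used here as 50 h. The samples are of whole animals, so fewer cells of a type and less RNA per cell cannot be told apart.

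Samples of the first collection held 25630681 to 32932976 counts each, and those of the second 54285989 to 72251267. Ribosomal RNA genes took 2.25% of the counts in the second ascr#10 library of 50 h and 0.347% to 0.982% elsewhere, and that library differed most from its own replicates. Markers of every adult tissue and of the germline were detected in all groups, and 7 genes of the male soma summed to at most 1.73 TPM, the deposited level per transcript length.

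For 6 of the 8 genes, all but akt-2 and daf-16, the change with age in water and in ascr#10 was larger in size than each of their changes with the pheromone, a comparison of values that was not tested. Between 50 h and 58 h in water, daf-2, age-1, daf-18, pdk-1 and akt-1 rose by 0.29 to 1.01 on the log2 scale, and sgk-1, akt-2 and daf-16 fell by 0.56, 0.16 and 0.11. With ascr#10, none of the 8 passed the test at 50 h or at 58 h in the first collection. At 58 h in the second collection age-1, daf-18 and daf-16 were higher and akt-2 and sgk-1 lower, by at most 0.36 on the log2 scale. Levels below are CPM, counts relative to the library total after edgeR's TMM scaling, and each call is an adjusted p under 0.05 from edgeR's quasi-likelihood test over all 16006 genes.

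The number of the 8 genes called is set here beside the share of all genes called in the same comparison. For age in water 8 of 8 were called, beside 79.9% of all genes tested, and for age in ascr#10 7 of 8, beside 80.9%. For ascr#10 at 50 h the count was 0 of 8 beside 12.9% of all genes, with 2 of 8 (daf-2 and daf-18) at an unadjusted p under 0.05 and 0 by DESeq2. For ascr#10 at 58 h in the first collection it was 0 of 8 beside 8.05%, with 0 at an unadjusted p under 0.05 and 0 by DESeq2. For the second collection it was 5 of 8 beside 31.7%, and for both collections together 3 of 8 beside 25.5%. The test that the age effect differed between ascr#10 and water called 0 of 8, beside 4.74% of all genes, with 0 at an unadjusted p under 0.05 and 0 by DESeq2. The test that the ascr#10 effect at 58 h differed between collections called 1 of 8, akt-2, beside 11.1%. The median change of the 8 genes with age in water was 0.35 against -0.10 over all genes tested, and with ascr#10 at 58 h in both collections it was 0.00 against 0.00.

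**Figure D1:**
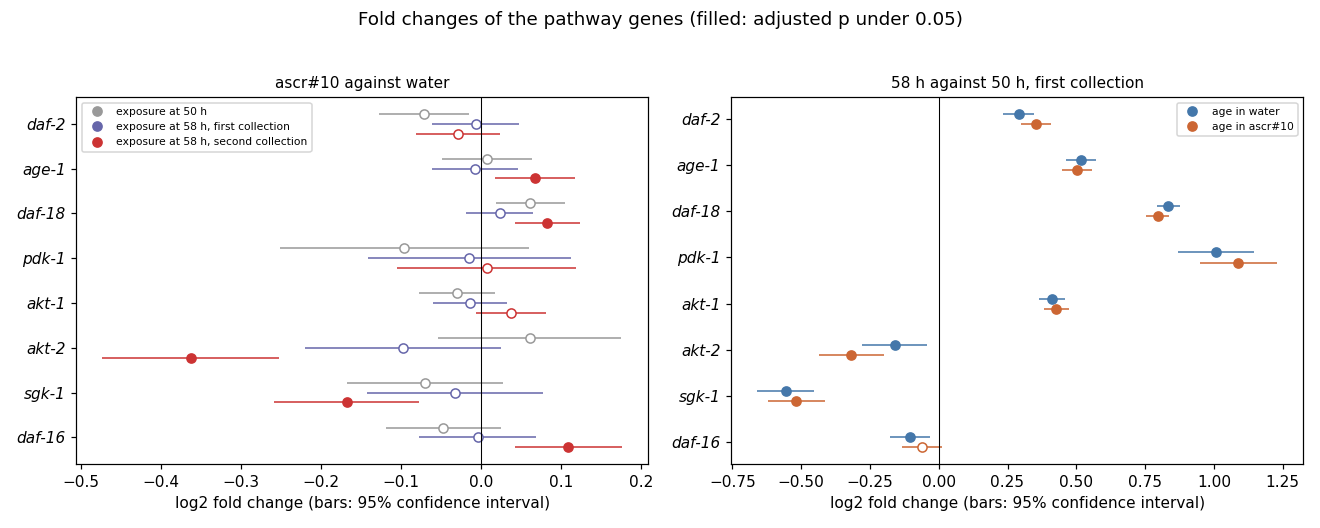
The log2 fold changes of the 8 genes are drawn as points with 95% confidence intervals, for ascr#10 against water (left: 50 h, 58 h first and 58 h second collection) and for 58 h against 50 h in the first collection (right: water and ascr#10); filled points had an adjusted p under 0.05. On the pheromone axis only second-collection points are filled, with akt-2 farthest from 0 at -0.36, while on the age axis pdk-1 reaches 1.01 in water and 1.09 in ascr#10.

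Per transcript length, as mean TPM, the order of the 8 genes was nearly the same in every group. In water at 50 h daf-18 stood highest at 101 ± 2.61 (SD, n = 3), then akt-1 at 85.4 ± 1.36, daf-16 at 50.1 ± 0.737, age-1 at 22.9 ± 0.175, sgk-1 at 22.4 ± 0.609, daf-2 at 20.8 ± 0.642, akt-2 at 10.7 ± 0.525 and pdk-1 at 4.01 ± 0.438. There the phosphatase gene thus had the highest level of the 8 and the kinase gene pdk-1 the lowest. Neighbours in this order did not overlap between samples, apart from age-1 and sgk-1 in both 50 h groups. At 58 h daf-2 stood above sgk-1 in all 4 groups, and in ascr#10 at 58 h of the second collection pdk-1 (4.90 ± 0.160 TPM) stood above akt-2 (4.53 ± 0.0957 TPM).

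Ratios between genes within a sample followed from these shifts. The TPM of daf-18 was 4.40 ± 0.0801 times that of age-1 in water at 50 h and 5.48 ± 0.0617 times at 58 h in the first collection. The TPM of akt-1 was 7.98 ± 0.495 times that of akt-2 in water at 50 h, 11.9 ± 1.05 times at 58 h of the first collection and 15.1 ± 0.244 times for the second. In ascr#10 at 58 h of the second collection the akt-1 to akt-2 ratio was 19.9 ± 0.444, above every other group. The akt-1 to sgk-1 ratio moved from 3.81 ± 0.0464 at 50 h to 7.47 ± 0.702 at 58 h in water of the first collection. These ratios were not tested.

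**Figure D2:**
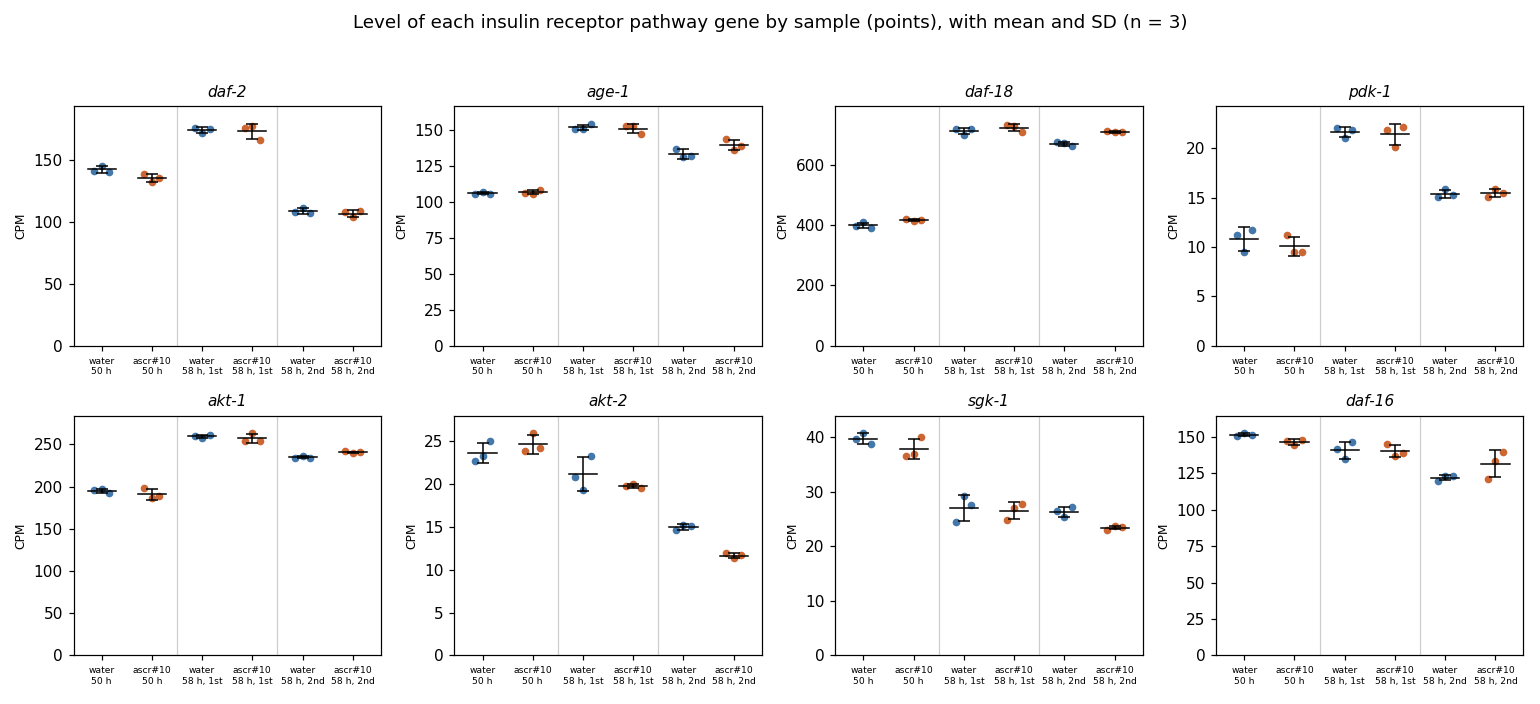
CPM of each gene is plotted by sample (points; blue water, orange ascr#10), with the group mean and SD of 3 samples and an axis from 0, for 50 h, 58 h first collection and 58 h second collection from left to right. The largest steps are between ages and between collections, such as daf-2 at 142 CPM in water at 50 h, 174 at 58 h of the first collection and 109 for the second.

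The receptor gene daf-2 (WBGene00000898) lies on chromosome III at 2994514 to 3040846, minus strand. Its level in water at 50 h was 141, 145 and 141 CPM in replicates 1, 2 and 3, and in ascr#10 139, 132 and 136 CPM. All 3 ascr#10 samples lay below the 3 water samples, by a narrow gap. The difference of -0.07 (SE 0.0284, log2) did not pass, with an adjusted p of 0.0896 in edgeR's test. It passed under 6 of 11 other settings. Among them were upper-quartile scaling (-0.09, adjusted p = 0.0371), no scaling beyond library size (-0.13, adjusted p = 0.000818) and a fit to the 50 h groups alone (-0.07, adjusted p = 0.0306). With library size alone the median over all genes was itself -0.057, and with upper-quartile scaling -0.017, against -0.002 in the main fit. With each library left out in turn daf-2 passed in 0 of 18 runs (adjusted p = 0.0696 to 0.332).

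At 58 h of the first collection daf-2 had 176, 172 and 175 CPM in water and 176, 178 and 167 CPM in ascr#10, and the groups overlapped. In the second collection it had 108, 112 and 107 CPM in water and 107.8, 103.9 and 108.9 CPM in ascr#10, again overlapping. With age in the first collection daf-2 rose by 0.29 in water (SE 0.0281, adjusted p = 1.05e-13, edgeR) and by 0.35 in ascr#10 (SE 0.0281, adjusted p = 7.95e-17). Its level in the second collection at 58 h lay below even the 50 h samples of the first. The direction of the age change thus rests on the samples taken as the first collection. That level difference between collections was not tested, and it cannot be told apart from the collection and its sequencing.

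The kinase gene age-1 (WBGene00000090, chromosome II, 11519328 to 11527054, minus strand) encodes the catalytic subunit that makes PIP3. It had 106, 107 and 106 CPM in water and 106, 106 and 108 CPM in ascr#10 at 50 h. It was higher in all 58 h samples of the first collection, with 151, 151 and 154 CPM in water and 153, 153 and 147 CPM in ascr#10. The rise with age was 0.52 in water (SE 0.0281, adjusted p = 1.61e-23, edgeR) and 0.50 in ascr#10 (SE 0.0280, adjusted p = 4.76e-23).

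The second collection gave age-1 137, 131 and 132 CPM in water and 143, 136 and 139 CPM in ascr#10, and 1 water sample lay above the lowest ascr#10 sample. The difference was 0.07 (SE 0.0252, adjusted p = 0.0355, edgeR). The call was lost without water replicate 2 (0.06, adjusted p = 0.153), water replicate 3 (0.06, adjusted p = 0.126), ascr#10 replicate 1 (0.05, adjusted p = 0.150) or ascr#10 replicate 3 (0.07, adjusted p = 0.0710) of that collection. It was also lost under 7 of 11 other settings, with an adjusted p up to 0.550.

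The phosphatase gene daf-18 (WBGene00000913, chromosome IV, 420011 to 425177, minus strand) opposes AGE-1. It had 397.5, 409 and 391 CPM in water and 419, 414 and 417 CPM in ascr#10 at 50 h, with no overlap. That difference of 0.06 (SE 0.0217, adjusted p = 0.0517, edgeR) was just outside the threshold and took adjusted p-values of 0.0161 to 0.881 under other settings and left-out libraries, with a value of -0.01 under limma on TPM. It passed without water replicate 2 at 50 h (0.08, adjusted p = 0.0267) and without 4 single libraries of other groups, ascr#10 replicates 1 and 3 (0.06 each, adjusted p = 0.0434 and 0.0363) and water replicate 2 (0.06, adjusted p = 0.0409) of the first collection at 58 h and ascr#10 replicate 1 (0.06, adjusted p = 0.0323) of the second.

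In the first collection at 58 h daf-18 had 717, 700.2 and 719 CPM in water and 733, 728 and 709 CPM in ascr#10. Its second-collection level was 675, 672 and 662 CPM in water and 712, 707 and 707 CPM in ascr#10, with every ascr#10 sample above every water sample. The first-collection difference was 0.02 (adjusted p = 0.616, 95% confidence interval -0.02 to 0.06) and the second-collection difference 0.08 (SE 0.0208, adjusted p = 0.00175, edgeR). Over both collections it was 0.05 (SE 0.0149, adjusted p = 0.00633). The call in the second collection was lost under limma on TPM alone among the 11 other settings (0.05, adjusted p = 0.206). The call over both collections was lost under that test (0.02, adjusted p = 0.444), upper-quartile scaling (0.03, adjusted p = 0.101) and library size alone (0.03, adjusted p = 0.112). With age daf-18 rose by 0.83 in water (SE 0.0216, adjusted p = 2.69e-38) and by 0.80 in ascr#10 (SE 0.0216, adjusted p = 2.23e-37).

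The kinase gene pdk-1 (WBGene00003965, chromosome X, 1321344 to 1327986, plus strand) acts between PIP3 and the AKT and SGK kinases. It was the weakest of the 8 in CPM at 50 h, with 11.3, 9.48 and 11.8 CPM in water and 11.2, 9.52 and 9.53 CPM in ascr#10. At 58 h it had 22.03, 21.1 and 21.9 CPM in water and 21.9, 20.2 and 22.2 CPM in ascr#10 for the first collection, against 15.1 to 15.9 CPM in all 6 samples of the second. Its level thus doubled with age in the samples taken as the first collection, a fold of 2.01 in water. The log2 change was 1.01 in water (SE 0.0711, adjusted p = 8.92e-19, edgeR) and 1.09 in ascr#10 (SE 0.0717, adjusted p = 5.33e-20), the largest of the 8. With ascr#10 the values were -0.10 (95% confidence interval -0.25 to 0.06) at 50 h, -0.01 (-0.14 to 0.11) at 58 h of the first collection and 0.01 (-0.11 to 0.12) for the second, and none passed.

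The kinase gene akt-1 (WBGene00000102, chromosome V, 10248905 to 10252845, plus strand) encodes the main AKT of the pathway. It had 196, 197 and 193 CPM in water and 198, 186 and 189 CPM in ascr#10 at 50 h. At 58 h it had 260.5, 258 and 261 CPM in water and 254, 263 and 255 CPM in ascr#10 in the first collection. For the second collection the groups did not overlap, at 234, 236 and 234 CPM in water and 242, 240.3 and 241 CPM in ascr#10. That difference of 0.04 (SE 0.0222, adjusted p = 0.209, edgeR) did not pass, although it did under DESeq2 (0.06, adjusted p = 0.0352) and with a minimum count of 50 (0.05, adjusted p = 0.0338). At 50 h akt-1 passed with library size alone (-0.09, adjusted p = 0.0115) and under limma on TPM (-0.10, adjusted p = 0.0233). In these settings the median over all genes was itself -0.057 and -0.060, against -0.002 in the main fit. With each library left out in turn akt-1 passed at 50 h in 0 of 18 runs (adjusted p = 0.178 to 0.845). With age akt-1 rose by 0.41 in water (SE 0.0239, adjusted p = 2.93e-22) and by 0.43 in ascr#10 (SE 0.0239, adjusted p = 5.38e-23).

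The second AKT gene, akt-2 (WBGene00000103, chromosome X, 14147700 to 14152070, plus strand), moved the other way from akt-1. It had 22.7, 23.3 and 24.97 CPM in water and 23.9, 25.9 and 24.2 CPM in ascr#10 at 50 h. At 58 h in the first collection it had 20.9, 19.3 and 23.3 CPM in water and 19.8, 19.9 and 19.5 CPM in ascr#10, and the groups overlapped. In the second collection it had 14.6, 15.2 and 15.04 CPM in water and 11.9, 11.3 and 11.7 CPM in ascr#10, with a clear gap between the groups.

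The ascr#10 difference of akt-2 in the second collection was -0.36 (SE 0.0564, adjusted p = 1.23e-06, edgeR), the largest pheromone effect among the 8 genes and larger than that of 83.2% of all genes tested. It was called under all 29 alternatives run. In the first collection the value was -0.10 (95% confidence interval -0.22 to 0.02, adjusted p = 0.416), and over both collections -0.23 (SE 0.0420, adjusted p = 3.29e-05), called under all 30 alternatives. The test of the difference between collections gave -0.27 (SE 0.0841, adjusted p = 0.0293), past the threshold by little. That call was lost without any 1 of 8 libraries at 58 h: water replicates 1 and 2 and ascr#10 replicates 1 and 2 of the first collection, and water replicates 2 and 3 and ascr#10 replicates 2 and 3 of the second, with values of -0.27 to -0.20 and adjusted p-values of 0.0511 to 0.134. It was also lost under limma on TPM (-0.22, adjusted p = 0.0869).

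With age akt-2 fell by 0.16 in water (SE 0.0603, adjusted p = 0.0141, edgeR) and by 0.32 in ascr#10 (SE 0.0602, adjusted p = 4.57e-06). The fall in water was not called without water replicate 3 at 50 h (-0.13, adjusted p = 0.0782) or water replicate 2 at 58 h of the first collection (-0.10, adjusted p = 0.143), nor under RLE scaling (-0.11, adjusted p = 0.0840), DESeq2 (-0.11, adjusted p = 0.104) or limma on TPM (-0.07, adjusted p = 0.225). The difference between the age effects was -0.16 (95% confidence interval -0.32 to 0.01, adjusted p = 0.376).

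The kinase gene sgk-1 (WBGene00004789, chromosome X, 16254842 to 16262122, minus strand) encodes the serum- and glucocorticoid-inducible kinase of the pathway. It had 39.8, 40.7 and 38.8 CPM in water and 36.6, 36.97 and 40.1 CPM in ascr#10 at 50 h. At 58 h all samples were lower, with 24.5, 29.2 and 27.6 CPM in water and 24.8, 27.1 and 27.7 CPM in ascr#10 in the first collection. The fall with age was 0.56 in water (log2 change -0.56, SE 0.0526, adjusted p = 4.96e-14, edgeR) and 0.52 in ascr#10 (log2 change -0.52, SE 0.0528, adjusted p = 5.75e-13).

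Second-collection sgk-1 had 26.5, 25.4 and 27.2 CPM in water and 23.1, 23.7 and 23.5 CPM in ascr#10, with no overlap. The difference was -0.17 (SE 0.0464, adjusted p = 0.00410, edgeR) and was called under all 29 alternatives. Over both collections it was -0.10 (SE 0.0364, adjusted p = 0.0351), and this call was lost without any 1 of 7 libraries at 58 h: water replicates 2 and 3 and ascr#10 replicate 1 of the first collection, and water replicates 1 and 3 and ascr#10 replicates 1 and 3 of the second, with an adjusted p of 0.0515 to 0.184. It was also lost under 6 of 12 other settings, DESeq2 among them (-0.08, adjusted p = 0.0909). In the first collection alone the value was -0.03 (95% confidence interval -0.14 to 0.08), and the difference between collections was -0.14 (-0.28 to 0.01, adjusted p = 0.255).

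The transcription factor gene daf-16 (WBGene00000912, chromosome I, 10750498 to 10776703, plus strand) is the pathway's main output and varied least, over 0.31 log2 units between the 6 group means. It had 150.3, 152 and 151 CPM in water and 147, 144 and 148 CPM in ascr#10 at 50 h. At 58 h it had 141, 135 and 146 CPM in water and 145, 137 and 139 CPM in ascr#10 in the first collection. In the second collection it had 119.8, 123 and 123 CPM in water and 121, 134 and 139 CPM in ascr#10, with ascr#10 replicate 1 inside the range of the water samples.

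The second-collection difference of daf-16 was 0.11 (SE 0.0342, adjusted p = 0.0156, edgeR). It was not called without water replicate 1 (0.10, adjusted p = 0.0732), ascr#10 replicate 2 (0.10, adjusted p = 0.0769) or ascr#10 replicate 3 (0.06, adjusted p = 0.162), nor under upper-quartile scaling (0.09, adjusted p = 0.0611), limma on TPM (0.08, adjusted p = 0.332) or a fit to the compared groups alone (0.10, adjusted p = 0.164). Over both collections it was 0.05 (adjusted p = 0.134), and it passed without ascr#10 replicate 1 of the second collection (0.08, adjusted p = 0.000943), under RLE scaling (0.07, adjusted p = 0.0341), without a filter on low counts (0.06, adjusted p = 0.00985) and under DESeq2 (0.07, adjusted p = 0.04). The difference between collections was 0.11 (adjusted p = 0.164), and without that same library it was 0.17 (adjusted p = 0.00111).

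With age daf-16 changed by -0.11 in water (SE 0.0370, adjusted p = 0.0113, edgeR), about the same as the median of all genes, -0.10. It was not called without water replicate 2 of the first collection at 58 h (-0.08, adjusted p = 0.0789), nor under RLE scaling (-0.06, adjusted p = 0.142), DESeq2 (-0.06, adjusted p = 0.171) or limma on TPM (-0.01, adjusted p = 0.867). In ascr#10 the change was -0.06 (adjusted p = 0.123). It took both signs under other settings (-0.12 to 0.09), and passed without ascr#10 replicate 1 (-0.07, adjusted p = 0.0214) or 3 (-0.07, adjusted p = 0.0436) of the second collection. It also passed under upper-quartile scaling (-0.12, adjusted p = 0.00397), with library size alone (-0.12, adjusted p = 0.00277), with a minimum count of 50 (-0.09, adjusted p = 0.0256) and with a replicate block (-0.06, adjusted p = 0.0462).

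Markers of other tissues moved with these same comparisons, and their part in the members' values was not tested. Between 50 h and 58 h in water 14 of 14 oocyte markers rose (summed TPM 3454 to 3519 at 50 h and 6252 to 6431 at 58 h). In the same comparison 11 of 11 sperm, 10 of 10 muscle and 11 of 12 neuron markers fell. The summed TPM of the neuron markers was nevertheless higher, at 330 to 339 at 50 h and 349 to 355 at 58 h. Of 10 hypodermis markers 8 fell and 2 rose, and of 9 embryo markers 8 rose and 1 fell. Of 10 intestine markers 8 fell and 1 rose, and of 12 germline markers 8 rose and 2 fell. Of all genes tested 37.5% rose and 42.4% fell. In ascr#10 at 58 h of the second collection 12 of 14 oocyte markers and 9 of 12 germline markers were higher, 10 of 10 muscle markers, 7 of 10 intestine markers and 6 of 12 neuron markers lower. Also lower were 7 of 11 sperm markers (median log2 change -0.45). In that comparison 15.30% of all genes tested were higher and 16.36% lower. The summed TPM of the muscle markers there was 1966 to 2037 in water and 1593 to 1656 in ascr#10. In the first collection at 58 h 0 of 14 oocyte markers, 0 of 12 germline markers and 2 of 10 muscle markers were called. There 5 of 11 sperm markers were lower (median log2 change -0.59) and 3 of 10 intestine markers higher. Of 10 hypodermis markers 1 was higher and 2 lower, and of all genes tested 2.84% were higher and 5.22% lower. With ascr#10 at 50 h 9 of 14 oocyte markers were higher and 5 of 11 sperm markers lower. Of all genes tested 7.70% were higher and 5.20% lower at 50 h.

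The 3 genes on the X chromosome, pdk-1, akt-2 and sgk-1, can be set beside all X-linked genes tested. Over 2195 X-linked genes the median change with age in water was -0.33, against -0.06 over 13778 autosomal genes, and sgk-1 and akt-2 fell while pdk-1 rose. For ascr#10 at 58 h of the second collection the X-linked median was -0.08 and the autosomal 0.01, with 21.3% of X-linked genes lower and 2.82% higher against 15.6% and 17.3% of autosomal genes.

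The transcripts of the 8 genes were examined by their share of each gene's TPM. Of the 37 listed transcripts, 20 in 5 genes (daf-2, age-1, pdk-1, akt-1 and daf-16) were tested for a change of use relative to the other transcripts of their gene, with limma on log2(TPM + 0.5). In all 18 samples the TPM of sgk-1 was listed under W10G6.2b.1 alone and that of daf-18 under its single transcript, T07A9.6.1. The main transcript of akt-2, F28H6.1a.1, held 98.5% to 99.3% of the gene's mean TPM share in every group, and that of age-1, B0334.8a.1, held 91.5% to 94.5%.

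Calls of changed use were 4 of 20 for ascr#10 at 50 h, beside 1.60% of the 9977 transcripts tested in all. For ascr#10 at 58 h in both collections they were 0 of 20, beside 0.421%, and edgeR's count test of exon use applied to transcripts called 2. For age in water there was 1 of 20, beside 7.42%, and for age in ascr#10 4 of 20, beside 7.18%. In both counts of 4, 2 calls are the pdk-1 pair. As in any gene with 2 tested transcripts, their relative changes mirror each other and share 1 p-value, so they are 1 result. For both ages and for ascr#10 at 50 h edgeR's count test called 0. On simulated data the TPM test called more unchanged transcripts than its threshold allows, so these calls are weaker than the gene calls.

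In daf-16 the calls at 50 h fell on R13H8.1b.2 and R13H8.1c.2. The TPM of R13H8.1b.2 was 6.32, 3.83 and 6.67 in water and 0.00, 0.507 and 4.86 in ascr#10 at 50 h, and 3.78 to 5.99 in every 58 h sample. The TPM of R13H8.1c.2 was 0.00, 2.57 and 0.00 in water and 5.62, 5.74 and 0.499 in ascr#10 at 50 h, and listed at 0 in 11 of 12 samples at 58 h. For both transcripts replicates 1 and 2 of ascr#10 lay outside the range of the water samples and replicate 3 inside it.

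The relative change was -2.14 for R13H8.1b.2 (adjusted p = 0.0151, limma) and 2.40 for R13H8.1c.2 (adjusted p = 0.00452) with ascr#10 at 50 h. With age in ascr#10 it was 2.43 (adjusted p = 0.000651) and -3.05 (adjusted p = 1.21e-05). At 50 h the first was lost without water replicate 1, water replicate 3, ascr#10 replicate 1 or ascr#10 replicate 2 (adjusted p up to 0.276), and the second without water replicate 1, ascr#10 replicate 1 or ascr#10 replicate 2 (adjusted p up to 0.0831). With age the first was lost without ascr#10 replicate 1 at 50 h (adjusted p = 0.0696).

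In pdk-1 the TPM of H42K12.1a.1 was 2.49, 1.14 and 0.864 in water and 2.24, 3.03 and 2.40 in ascr#10 at 50 h, and that of H42K12.1b.1 was 1.69, 2.37 and 3.47 in water and 1.77, 0.269 and 0.977 in ascr#10. The groups overlapped for both. The relative change of H42K12.1a.1 was 1.78 at 50 h (adjusted p = 0.0494, limma), and with each of the 18 libraries left out in turn it was called 3 times, with an adjusted p up to 0.235. With age in ascr#10 it was -1.61 (adjusted p = 0.0321), lost without ascr#10 replicate 2 or 3 at 50 h or ascr#10 replicate 1 or 3 of the first collection at 58 h (adjusted p up to 0.208). These transcripts rest on 269 to 327 counts per sample for the whole gene at 50 h.

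In akt-1 the share of C12D8.10b.1 was 11.8% ± 1.84 (SD, n = 3) in water at 50 h and 5.76% ± 0.178 at 58 h in the first collection, and 11.5% ± 0.711 and 5.88% ± 0.411 in ascr#10. Its TPM fell from 9.80, 8.86 and 11.6 at 50 h to 6.70, 7.02 and 7.09 at 58 h in water, while the main transcript C12D8.10a.1 went from 74.0, 74.1 and 67.2 to 107, 109 and 109.9. The groups did not overlap for either transcript. The relative change of C12D8.10b.1 in water was -1.01 (adjusted p = 0.0421, limma), and with each of the 18 libraries left out in turn it was called 6 times, with an adjusted p up to 0.150.

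Transcript levels also separated by collection, which no test of the design addresses. The daf-16 transcript R13H8.1h.1 had 8.40 to 16.499 TPM in all 12 samples of the first collection, was listed at 0 in 5 of 6 samples of the second and had 3.13 TPM in the other. The transcript R13H8.1e.1 was listed at 0 in all 12 first-collection samples and had 2.63 to 5.68 TPM in the second. In daf-2 the transcript Y55D5A.5e.1 had 2.78 to 6.91 TPM in the first collection, was listed at 0 in 5 of 6 samples of the second and had 1.95 TPM in the remaining one, ascr#10 replicate 1, which was also the library with R13H8.1h.1. Splits among overlapping transcripts come from the authors' estimation, and what separates the collections here was not tested.

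**Figure D3:**
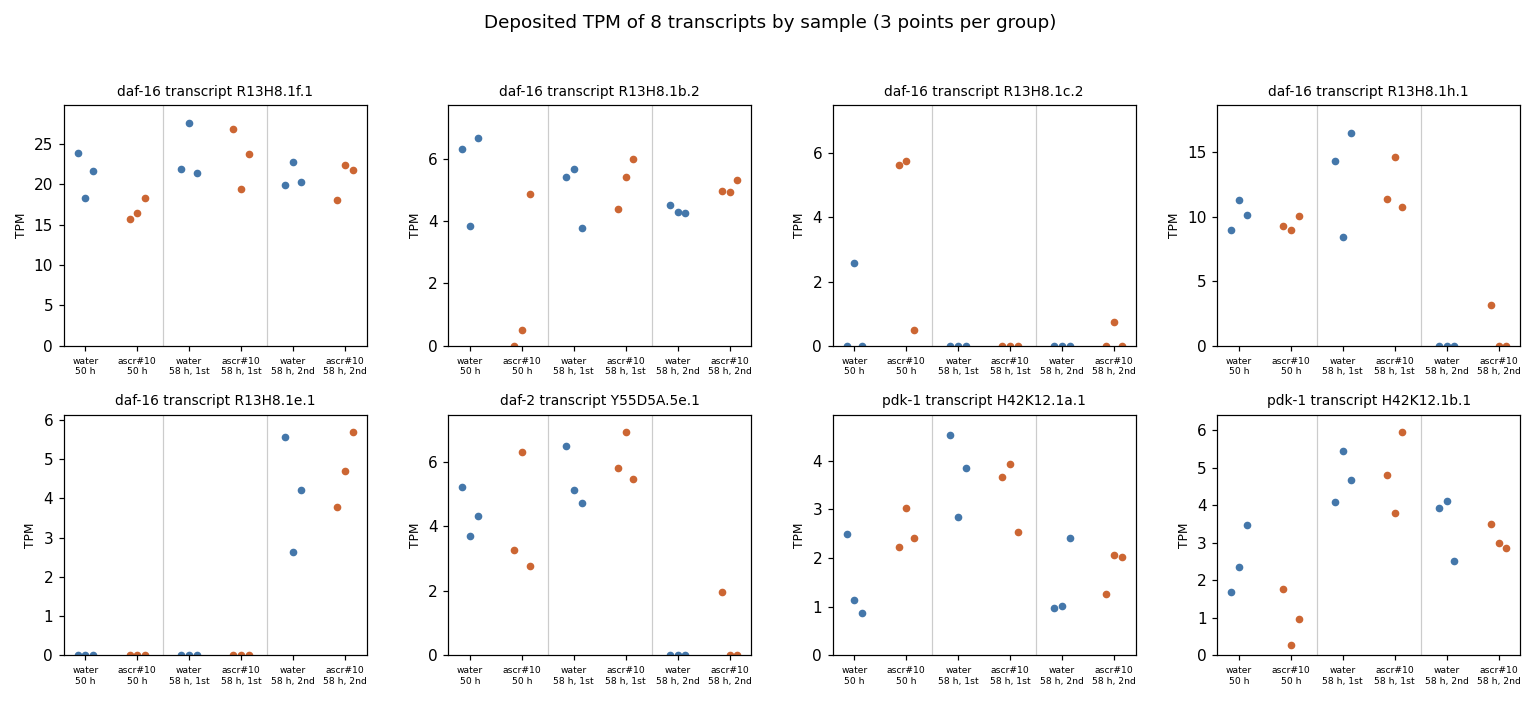
Deposited TPM of 8 transcripts is plotted by sample (3 points per group; blue water, orange ascr#10; axis from 0). R13H8.1h.1 and Y55D5A.5e.1 are near 0 in most second-collection samples and R13H8.1e.1 appears only there, while R13H8.1b.2, R13H8.1c.2 and the pdk-1 pair overlap between water and ascr#10 at 50 h.

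Other genes of the pathway were taken from 6 lists of textbook members, and their counts stand beside the shares of all genes called, which were 12.9% with ascr#10 at 50 h, 25.5% at 58 h over both collections and 79.9% with age in water. Among 16 receptor-proximal and kinase partners, 0 were called with ascr#10 at 50 h, 3 were higher and 1 lower at 58 h over both collections, and 11 rose and 1 fell with age in water. The called shares at 58 h and with age, 25% and 75%, were near those of all genes. The insulin receptor substrate homologue ist-1 had 12.9 CPM in water against 10.2 in ascr#10 in the first collection, then 7.23 against 6.38, a log2 change of -0.26 (SE 0.0538, adjusted p = 0.000223, edgeR) that was called under every alternative run. The list's small gains, aap-1 (0.08), ptp-2 (0.06) and the lipid kinase ppk-1 (0.07), were each lost under 4 of 12 other settings. The call of ptp-2 was also lost without water replicate 2 of the first (0.05, adjusted p = 0.0509) or ascr#10 replicate 3 of the second collection (0.05, adjusted p = 0.0507), and that of ppk-1 without any 1 of 4 libraries, water replicates 1 and 2 or ascr#10 replicate 1 of the first collection or ascr#10 replicate 3 of the second (0.05 to 0.07, adjusted p = 0.0522 to 0.127). With age the PI3K adaptor aap-1 (0.50), the adaptor sem-5 (0.52) and the tyrosine phosphatase ptp-2 (0.50) rose in water, while the 5-phosphatase inpp-1 fell (-0.88), and the list's median was 0.30.

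Among 21 tested partners and modifiers of DAF-16 in the nucleus, 1 was higher and 1 lower with ascr#10 at 50 h, 10 were higher and 1 lower at 58 h over both collections, and 16 rose and 4 fell with age in water. The called shares with ascr#10 were 9.52% and 52.4%, beside 12.9% and 25.5% of all genes, and with age 20 of 21 were called beside 79.9%. At 58 h the SWI/SNF subunit swsn-1 rose by 0.14 (SE 0.0236, adjusted p = 8.04e-06, edgeR), and the arginine methyltransferase prmt-1 by 0.07 (adjusted p = 0.000104). The heat shock factor gene hsf-1 rose by 0.10 (adjusted p = 0.00164) but was not called under limma on TPM. The MST kinase gene cst-1 was lower (-0.11, adjusted p = 0.0316), a call lost under 6 of 12 settings and without any 1 of 6 libraries at 58 h (adjusted p up to 0.128). The count of 11 was 3 under limma on TPM, 5 under upper-quartile scaling or library size alone, and 7 without water replicate 2 of the first or water replicate 3 of the second collection. At 50 h the calls were pqm-1 (0.17, adjusted p = 0.00854), a transcription factor that acts opposite to DAF-16, lost without water replicate 1 (0.15, adjusted p = 0.0511) or ascr#10 replicate 2 (0.14, adjusted p = 0.0682), and hlh-30 (-0.16, adjusted p = 0.0396), the worm's TFEB, lost without any 1 of 10 libraries (adjusted p up to 0.197). With age in water of the first collection swsn-1 (0.81), skn-1 (0.55) and the importin gene imb-2 (0.53) rose and the kinase gene jnk-1 fell (-0.73). The rise of swsn-1 rests on that collection. In water it had 69.4 CPM at 50 h, 121 at 58 h of the first collection and 61.5 for the second. That level difference between collections was not tested. The median change was 0.05 at 58 h with ascr#10 and 0.37 with age, against 0.00 and -0.10 over all genes.

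Among 10 tested genes of the TOR pathway, which senses nutrients beside the insulin pathway, 0 were called with ascr#10 at 50 h and 8 rose with age in water, among them the Rag GTPase genes ragc-1 (0.43) and raga-1 (0.38), daf-15 (0.35), the worm's Raptor, and the eIF4E gene ife-2 (0.40). At 58 h with ascr#10 the AMP-activated kinase gene aak-2 fell by 0.11 (log2 change -0.11, SE 0.0269, adjusted p = 0.00229, edgeR) and ragc-1 was called higher (0.07), a call lost under 5 other settings. The called shares, 0% at 50 h, 20% at 58 h and 80% with age, were below or near the 12.9%, 25.5% and 79.9% of all genes.

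Genes that textbooks give as raised by DAF-16 were mostly lower in ascr#10 at 58 h. Of 30 tested, 19 were lower and 1 higher over both collections, a called share of 66.7% beside 25.5% of all genes. The first collection alone held 11 lower and 2 higher, and the second 18 lower and 1 higher. These called shares were 43.3% and 63.3%, beside 8.05% and 31.7% of all genes. The list's median was -0.18 over both, then -0.15 and -0.22 by collection. Under other settings the lower count over both collections was 16 to 19. The glyoxylate cycle enzyme icl-1 had 1238 CPM in water and 974 in ascr#10 in the first collection, then 431 and 341 (-0.34, SE 0.0174, adjusted p = 1.68e-21, edgeR). The trehalose synthase tps-2 had 168 against 140 CPM and then 128 against 100.1 CPM (-0.31, adjusted p = 3.64e-19). The gene dod-3 fell by 0.58 (SE 0.0719, adjusted p = 1.11e-08) and the transhydrogenase nnt-1 by 0.42 (adjusted p = 0.000241). The superoxide dismutase sod-3, the best-known target, had 1.47 CPM in water and 1.66 in ascr#10 in the first collection, then 2.18 and 2.19, and did not pass (0.10, adjusted p = 0.608). Both tps-2 and sod-3 were chosen after their values were seen. The metallothionein gene mtl-1, under 1 CPM in every group, was lower (-0.88, adjusted p = 0.036), a call lost without any 1 of 4 libraries, water replicate 3 or ascr#10 replicate 1 of the first collection or replicate 1 of either group of the second (adjusted p = 0.0519 to 0.199). In the first collection 3 of 10 intestine markers were higher and 0 lower with ascr#10, and in the second 0 were higher and 7 lower, and the part of such shifts in the list's values was not tested.

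At 50 h the same list held 5 higher and 8 lower of 30 with ascr#10, a called share of 43.3% beside 12.9% of all genes, and the median was -0.02. The chaperone gene hsp-16.48, which has near-identical copies so that its reads may be shared, went from 13.8 to 23.6 CPM (0.77, SE 0.116, adjusted p = 0.000518, edgeR), and the gene hacd-1 from 21.5 to 35.6 CPM (0.73, adjusted p = 9.43e-16). In the other direction icl-1 went from 1753 to 1232 CPM (-0.51, adjusted p = 4.59e-23) and nnt-1 from 8.99 to 6.54 CPM (-0.46, adjusted p = 0.00118). Without ascr#10 replicate 2, the library with the most ribosomal RNA, the count of called genes was 15 in place of 13. With age in water 10 rose and 15 fell, 83.3% beside 79.9% of all genes, among them dao-3 (1.09), hsp-12.6 (1.34), aqp-1 (-0.99) and the ferritin ftn-1 (-1.42).

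Of 11 tested genes given as lowered by DAF-16, 4 were higher and 1 lower with ascr#10 at 50 h, 2 higher and 3 lower at 58 h over both collections, and 4 rose and 6 fell with age in water. The called shares were 45.5%, 45.5% and 90.9%, beside 12.9%, 25.5% and 79.9% of all genes. The peptide transporter pept-1 was higher with ascr#10 at 50 h (0.22, adjusted p = 1.25e-06, edgeR) and at 58 h over both collections (0.30, adjusted p = 4.98e-13). At 58 h it had 24.7 CPM in water and 35.7 in ascr#10 in the first collection, then 78.9 and 82.8. Its ascr#10 effect differed between the collections (-0.46, adjusted p = 3.58e-09, edgeR). The yolk protein gene vit-5 was higher at 50 h (0.35, adjusted p = 4.09e-12). Also at 50 h dod-19 was called higher (0.14, adjusted p = 0.000369), except under limma on TPM, and the insulin-like gene ins-7 lower (-0.39, adjusted p = 0.0122), except without water replicate 1 (-0.36, adjusted p = 0.0646). At 58 h the calls of dod-18 (0.10), dod-24 (-0.18) and vit-2 (-0.08) were each lost under 2 to 6 of 12 settings and without any 1 of 5 to 8 libraries. By collection the counts at 58 h were 2 higher and 0 lower, then 0 higher and 6 lower. These called shares were 18.2% and 54.5%, beside 8.05% and 31.7% of all genes in the first and second collection. With age in water of the first collection vit-5 rose (1.495) while pept-1 (-1.68), dod-17 (-2.18) and dod-19 (-2.03) fell. The fall of pept-1 rests on that collection. In water it had 79.2 CPM at 50 h, 24.7 at 58 h of the first collection and 78.9 for the second. That level difference between collections was not tested. The vit genes include near-identical copies, so single members are uncertain.

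Insulin-like peptides, the family that holds the ligands of DAF-2, were mostly weak: 24 of 40 were tested and 1 was at 0 in all samples. With ascr#10 at 50 h 2 were higher and 2 lower, at 58 h over both collections 0 higher and 2 lower, and with age in water 2 rose and 10 fell, with a median of -0.36. The called shares were 16.7%, 8.33% and 50%, beside 12.9%, 25.5% and 79.9% of all genes, so the first was near the background and the others below it. The count of 4 at 50 h was 0 without water replicate 1, 1 without ascr#10 replicate 2 and 2 without water replicate 2, water replicate 3 or ascr#10 replicate 1. With age ins-37 fell from 8.79 to 0.95 CPM (-3.21, adjusted p = 2.95e-24, edgeR), ins-33 from 0.966 to 0.101 CPM (-3.23, adjusted p = 7.80e-09), and ins-34 rose from 0.681 to 3.24 CPM (2.25, adjusted p = 4.01e-14). The ligand gene daf-28 went from 2.13 to 3.07 CPM with ascr#10 at 50 h (0.53, adjusted p = 0.0157), a call lost without water replicate 1 (0.46, adjusted p = 0.0836), water replicate 2 (0.50, adjusted p = 0.0746), ascr#10 replicate 2 (0.52, adjusted p = 0.0514) or ascr#10 replicate 3 (0.50, adjusted p = 0.0652). The call of ins-22 at 50 h (-0.84, adjusted p = 0.047) was lost without any 1 of 10 libraries (adjusted p up to 0.169). At 58 h ins-18 (-0.40, adjusted p = 0.0257) and ins-37 (-0.53, adjusted p = 0.0217) were lower, and each call was lost without any 1 of 3 libraries (adjusted p up to 0.117): water replicate 3 or ascr#10 replicate 1 of the first collection for both, and ascr#10 replicate 1 of the second for ins-18 or replicate 2 for ins-37. The counts of ins-31 were 0 in all 3 water samples and 5, 3 and 2 in ascr#10 at 50 h, then 20, 22 and 20 in water and 2, 0 and 0 in ascr#10 at 58 h of the first collection. In the second it was counted in 1 sample, with 4 counts in ascr#10 replicate 3, so no fold is given.

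**Figure D4:**
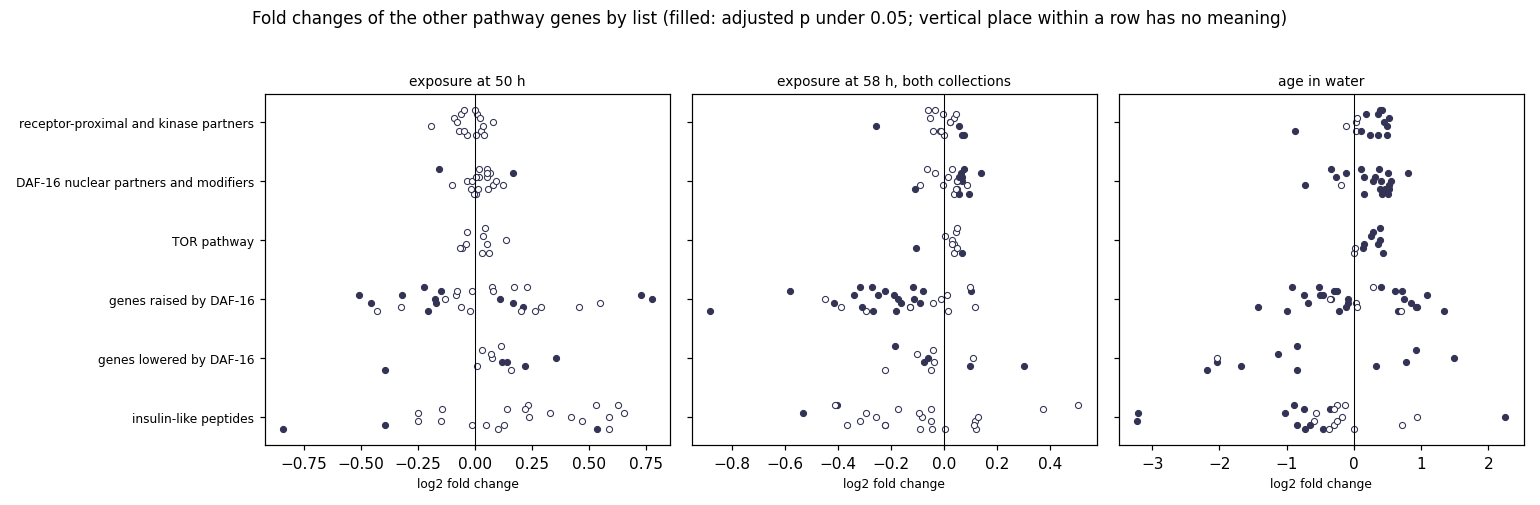
Log2 fold changes of the tested genes of 6 pathway lists (rows) are plotted as points for ascr#10 at 50 h, ascr#10 at 58 h over both collections and age in water; filled points had an adjusted p under 0.05, the horizontal scales differ, and ins-31, with no counts in 2 groups, is left out. At 58 h 19 of 30 genes raised by DAF-16 lie filled on the left, and with age 11 of 16 receptor-proximal partners and 8 of 10 TOR genes lie filled on the right.

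For the 6 members whose group means spanned at least 0.5 log2 units, all but akt-1 and daf-16, the genes with the most alike profile over the 18 samples were found among 8015 candidates as those with the smallest root mean square difference of centred log2 CPM. For daf-2 these were suco-1 (0.05) and xrn-1 (0.05), for age-1 imb-2 (0.02) and par-3 (0.03), and for daf-18 nasp-2 and chdp-1 (0.03 each). For pdk-1 they were coh-1 and pqn-15 (0.10 each), for akt-2 tep-1 (0.08) and ncam-1 (0.09), and for sgk-1 lron-7 and atgp-1 (0.08 each). No gene of the insulin pathway's 8 was among those named for another, and imb-2, the importin of the nuclear partner list, was the closest to age-1.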

How the data were processed

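RNA of 18 samples in 6 groups of 3 was sequenced as directional single-end libraries, per the labels' protocols. The authors deposited estimated counts per gene and per transcript in tables whose headers name salmon, and the gene-level estimated counts, 95.2% of them exactly whole, were rounded here to whole numbers. The authors also deposited TPM values, which are relative to each sample's own total and to transcript length, and length-scaled estimated counts, used as alternatives. The sources used here do not give the salmon version, index or genome build. Coordinates and chromosomes come from Ensembl 115 (WBcel235), matched by gene ID for 15987 of 16006 tested genes.

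Groups follow titles and descriptions. Genes passing edgeR's filterByExpr (minimum count 10) were scaled by TMM and fitted with edgeR 4.0.16 (quasi-likelihood, robust; R 4.3.3) as 6 group means over all 18 samples. Each of 8 comparisons was adjusted over all genes tested by Benjamini-Hochberg (threshold 0.05). Fold changes are log2, with SE from the fit. The 95% confidence intervals use normal quantiles of that SE and are a little narrower than edgeR's test implies. For age-1 the difference between collections had an interval of 0.00159 to 0.147, although edgeR's test gave an unadjusted p of 0.0504. CPM are TMM-scaled. Transcript use was tested with limma 3.58.1 (diffSplice) on log2(TPM + 0.5), for transcripts at 0.5 TPM or more in at least 3 samples. DESeq2 1.42.0, limma on log2(TPM + 1) and log2(TPM + 0.1), other scalings, filters and models, and leaving out each sample were alternatives. Where a group keeps 2 samples after one is left out, the spread is shared with the other groups. The tests were tried on simulated data.

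The 8 genes and all lists were chosen with earlier results of these data known. Genes named are the 8, the 2 most alike profiles of each, and up to 4 genes per list with the largest change among those called at 50 h, at 58 h over both collections and with age in water. The 3 samples of a group are described as independent, but their plates are not itemised, so p-values cover the spread between these samples. Genes sharing reads with near-identical copies are uncertain.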

Additional observations from a re-analysis of the deposited data

Results flagged for a closer look

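Each value here is a difference between 2 effects on the log2 scale that passed edgeR's quasi-likelihood test (adjusted over all 16006 genes). No cause was tested.

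Among the 8 receptor pathway genes, akt-2 was the only one called: its ascr#10 effect at 58 h differed by -0.27 between the second and the first collection (adjusted p = 0.0293), a call lost without any 1 of the 8 libraries named with it above. Of the partner genes, the PI3K adaptor gene aap-1 had an effect 0.14 higher in the second collection (adjusted p = 0.0321) and pqm-1 one of -0.34 (adjusted p = 2.82e-05).

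Several DAF-16-raised genes differed between collections in their response to ascr#10 at 58 h. The difference was -0.44 for hsp-16.48 (adjusted p = 0.0394), -0.24 for the aquaporin gene aqp-1 (adjusted p = 0.0207) and 0.35 for hacd-1 (adjusted p = 0.0045). Among the DAF-16-lowered genes it was -0.46 for pept-1 (adjusted p = 3.58e-09), -0.44 for dod-19 (adjusted p = 1.55e-09), -0.69 for dod-17 (adjusted p = 0.00175) and -0.20 for vit-5 (adjusted p = 0.000332).

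The ascr#10 effect also differed between 50 h and 58 h within the first collection. It moved by -1.15 for hacd-1 (adjusted p = 7.04e-14), which had 21.5 CPM in water and 35.6 in ascr#10 at 50 h and 12.9 and 9.63 at 58 h. The move was -0.61 for dod-3 (adjusted p = 0.0118), 0.16 for icl-1 (adjusted p = 0.00126), -0.32 for vit-5 (adjusted p = 2.71e-07) and 0.31 for pept-1 (adjusted p = 7.22e-05).

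The insulin-like gene ins-31 passed both tests, with fitted values of -10.08 for age (adjusted p = 4.56e-05) and 7.91 for collection (adjusted p = 0.00295). These rest on at most 22 counts per sample and on groups with no counts, depend on the prior count and give no bound.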

How the results depend on the processing

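No direction of a called change among the 8 genes reversed in any alternative run. The count of 0 called with ascr#10 at 50 h became 1 under upper-quartile scaling, a minimum count of 50 or length-scaled counts, 2 under limma on log2(TPM + 1) or log2(TPM + 0.1) or with the compared groups only, 3 with library size only, and 0 to 1 with a library left out. The 5 called in the second collection became 3 under upper-quartile scaling or with the compared groups only, 2 under limma on TPM with either pseudocount, and 3 to 5 with a library left out. That count was 4 with library size only, without a filter on low counts or with length-scaled counts. It was 6 under DESeq2 or with a minimum count of 50. The 3 called over both collections became 1 under limma on TPM with either pseudocount, and 2 to 3 with a library left out. They became 2 under upper-quartile scaling, with library size only, with length-scaled counts or with the compared groups only. Without a filter on low counts 4 were called. Under RLE scaling and DESeq2 the count stayed at 3, with daf-16 called in place of sgk-1. The 1 called for the difference between collections became 2 with a minimum count of 50, 0 under limma on TPM with either pseudocount, and 0 to 2 with a library left out. The counts for age stayed within 1.5 times.

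Transcript calls moved more. The 4 at 50 h became 1 with log2(TPM + 0.1), 0 under edgeR's count test and 0 to 4 with a library left out; the 0 at 58 h became 2 under that test. The 1 with age in water became 0 with log2(TPM + 0.1) or the count test, 2 with log2(TPM + 1) or a minimum of 2 TPM, and 0 to 2 with a library left out. The 4 with age in ascr#10 became 0 under the count test and 2 to 4 with a library left out.

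Over 21 same-numbered pairs of samples r was -0.20 to 0.32, with 3 above 0.1. In the first collection no such pair exceeded 0.108, so there the numbers showed no pairing. In the second collection r was 0.318 for replicate 1, 0.27 for replicate 2 and -0.0251 for replicate 3. Its unlike-numbered pairs had r from -0.335 to 0.194. These few pairs cannot decide whether the numbers pair the samples of the second collection. With a replicate block the counts of called members were 0 at 50 h, 5 in the second collection, 3 over both and 8 with age in either treatment. Transcript calls under the block were 2 at 50 h and 0 with age in water.

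Over all genes the calls were 2277 in place of 1289 in the first collection without a filter. Under limma on log2(TPM + 1) they were 2268 in place of 5067 in the second, 2361 in place of 4083 over both and 1166 in place of 1783 for the difference between collections. The share of called genes that were higher was 59.7% (17.7% to 63.7% over scalings) at 50 h, 35.2% (21.3% to 47.6%) in the first, 48.3% (17.2% to 57.5%) in the second collection, 46.3% (11.9% to 59.5%) over both, 19.7% (19.3% to 48.6%) for the difference between ages and 38.9% (28.3% to 41.9%) for that between collections. The median over all genes shifted with scaling by at most 0.07 log2 for ascr#10 against water and 0.13 for age. In the second collection akt-2 and sgk-1 were called in every alternative run, and akt-2 also over both. The causes of these moves were not tested.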
